A study of Rattus norvegicus with 4 samples.

Results

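Translocon and oligosaccharyltransferase genes were followed in the livers of 4 untreated male Sprague-Dawley rats, 10 to 12 weeks old, each measured on its own Affymetrix expression array. The set has 10 genes: Tram1, Sec61a1, Sec61b, Ssr1, Ssr3, Ssr4, Rpn1, Rpn2, Ddost and Dad1. Its members were every probe set whose annotation gives 1 of these symbols and no other, which found 14 probe sets among the 15923 on the array and covered all 10 genes among 10412 with a symbol. All 4 rats form 1 control group with no treatment, so no groups were compared and no test between groups exists. Each rat had 1 array, so a difference between rats cannot be told apart from a difference between arrays. Whole liver was used, and in such bulk RNA fewer cells of a type and less RNA per cell cannot be told apart.

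Proteins that liver cells secrete or place in their membranes are made on ribosomes docked to the endoplasmic reticulum. The nascent chain passes through the Sec61 channel, helped by the TRAP complex (translocon-associated protein, encoded by the Ssr genes) and by Tram1, while signal peptidase removes its signal sequence. As the chain emerges, the oligosaccharyltransferase attaches a preassembled glycan to asparagine residues. Hepatocytes, which make most plasma proteins, are rich in this rough endoplasmic reticulum.

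Values are log2 signals, and an SD is taken over the 4 rats (n = 4 throughout). A difference of 1 log2 unit is a doubling. Each probe set hybridises in its own way, so signals do not rank genes by amount of transcript. Probe sets whose 4 values lay within 0.001 of each other are called flat, as 6923 of 15923 probe sets were, or 43.5%. The brightest probe set of a gene stood for it. Genes typical of brain, muscle, testis or eye served as background, and the level they set was 8.31 on the log2 scale.

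All 10 genes lay above that level, and each did so on all 4 arrays. Over the whole array 4874 of 10412 genes did, or 46.8%. At the 98th percentile of those background genes in place of the 95th, a level of 10.59, 7 of the 10 lay above it, without Ssr1, Ddost and Dad1, where 4.87% of all genes did. Above a round level of 9, chosen after the data were seen, all 10 did, as did 21.3% of all genes. Of the 14 probe sets, 13 lay above the level of 8.31, and the weaker Tram1 probe set lay below it. As a check of the labelled tissue, 8 of 8 hepatocyte markers were above background, among them albumin (Alb) at 15.06 ± 0.02 (SD, n = 4). Of markers of other cells, 3 of 3 for Kupffer cells, 2 of 3 for endothelial cells and 3 of 6 for stellate cells exceeded background. For bile duct cells 0 of 3 did, and for lymphocytes and other leukocytes 0 of 3 (Cd79b, Cd3e and Ptprc). For exocrine pancreas 1 of 6 did (Cela1, at 9.49 ± 0.15). These counts are of markers with a probe set. The defining plasma cell genes Jchain and Mzb1, and Cd79a, were listed but had no probe set with their symbol alone. The same held for Cd163, Marco and Vsig4 of Kupffer cells, Stab2 and Clec4g of endothelial cells and Sox9 of bile duct cells.

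**Figure D1:**
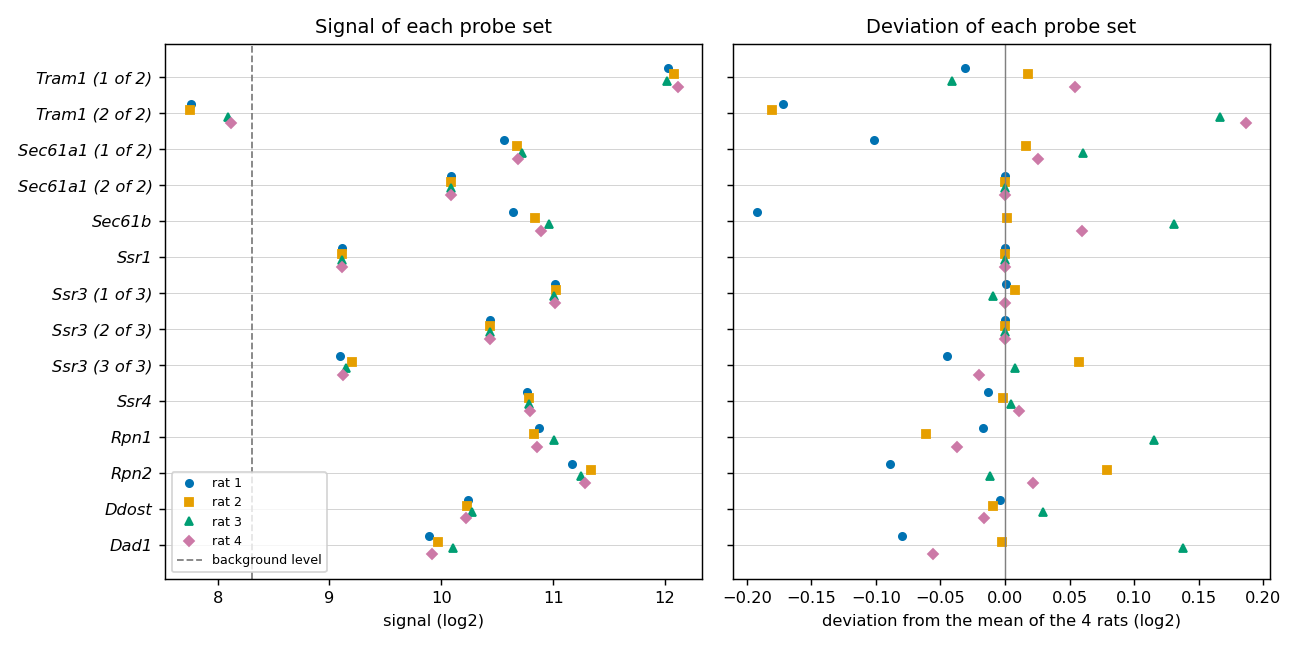
Log2 signal (left) and deviation from the mean of the 4 rats in log2 units (right) for all 14 probe sets of the 10 genes; each symbol is 1 rat and the dashed line is the background level of 8.31. Sec61b spans 10.64 to 10.96 with rat 1 lowest and rat 3 highest, while Ssr1 and 1 probe set each of Sec61a1 and Ssr3 are flat.

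The Sec61 channel is a heterotrimer of the pore-forming alpha subunit and small beta and gamma subunits. Sec61b, the tail-anchored beta subunit, had signals of 10.64, 10.84, 10.96 and 10.89 in rats 1 to 4 (10.83 ± 0.14). Rat 1 was lowest and rat 3 highest, a 1.25-fold difference, which was the widest among the 10 genes at the level of the probe set that represents each gene. Sec61a1, the alpha subunit that forms the pore, had 10.56, 10.68, 10.72 and 10.69 (10.66 ± 0.07), with rat 1 standing below the other 3 rats. The second Sec61a1 probe set was flat at 10.09 and cannot show a difference between rats. The gamma subunit Sec61g, measured beside the 10 genes, had 10.50, 10.75, 10.81 and 10.77 (10.71 ± 0.14).

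All 3 subunits of the channel placed the rats in the same order from low to high: rat 1, rat 2, rat 4 and rat 3. This order was noticed after the values were seen and is a description. It was found in 198 of 3185 genes above background and not flat, or 6.22%. Within this order rats 2 and 4 lay close, at 10.68 and 10.69 for Sec61a1 and 10.75 and 10.77 for Sec61g. The deviations of Sec61b and Sec61g differed by a root mean square of 0.0283 log2 units over the 4 arrays, and those of Sec61a1 and Sec61b by 0.06. These deviations were not scaled to the SD, so whether Sec61a1 differed from the small subunits in size or in shape was not tested.

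Tram1, which contacts nascent chains beside the channel, differed little. Its brighter probe set gave 12.03, 12.08, 12.02 and 12.11 (12.06 ± 0.04), with rat 4 highest and rat 3 lowest. Its other probe set, below background, gave 7.76, 7.75, 8.10 and 8.12 (7.93 ± 0.20). That probe set put rats 3 and 4 above rats 1 and 2, so the 2 Tram1 probe sets disagreed on rat 3.

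By their brightest probe sets, the TRAP subunits Ssr3 and Ssr4 had the smallest SDs of the 9 genes that were not flat. TRAP binds the channel beside the ribosome and assists signal sequences that open it weakly. Ssr4, the delta subunit, gave 10.77, 10.78, 10.79 and 10.79 (10.78, SD 0.01), and its highest and lowest rats differed 1.02-fold. Ssr3, the gamma subunit, had 3 probe sets: the brightest gave 11.02, 11.02, 11.01 and 11.02 (SD 0.00696), the next was flat at 10.43, and the dimmest gave 9.10, 9.20, 9.15 and 9.12 (9.14 ± 0.04). Rat 2 was highest in both that were not flat. Ssr1, the alpha subunit, had 1 probe set, which was flat at 9.11 and so carries no information on the rats. The beta subunit Ssr2, outside the 10 genes, moved more, with 9.45, 9.50, 9.60 and 9.51 (SD 0.0651) and rat 3 highest.

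Of the 4 oligosaccharyltransferase subunits in the set, Rpn1, Ddost and Dad1 had their highest signal in rat 3 and Rpn2 in rat 2. Rpn1 (ribophorin I), which presents some membrane proteins to the enzyme, gave 10.87, 10.83, 11.01 and 10.85 (10.89 ± 0.08), with rat 3 above the other 3 rats. Rpn2 (ribophorin II) gave 11.17, 11.34, 11.25 and 11.28 (11.26 ± 0.07), with rat 2 highest and rat 1 lowest. Rat 2 was therefore the lowest rat for Rpn1 and the highest for Rpn2, at deviations of -0.06 and 0.08.

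Dad1, a small membrane subunit named as a defender against cell death, gave 9.89, 9.97, 10.11 and 9.91 (9.97 ± 0.10). Rat 3 stood highest, as for Rpn1, and the pair differed by a root mean square of 0.0459 in their deviations. Ddost, the OST48 subunit, gave 10.24, 10.23, 10.27 and 10.22 (10.24 ± 0.02), with rat 3 again highest but only 1.03-fold over the lowest. Rpn1 and Rpn2 differed by 0.106, among the larger of the 36 pairs of members, which ran from 0.0119 for Ssr3 and Ssr4 to 0.122 for Sec61b and Ssr3. Deviations were not scaled to the SD, so genes of small spread lie close whatever their order of rats. Ssr3 and Ssr4 had the smallest SDs of the genes not flat, yet Ssr3 was lowest in rat 3 and Ssr4 in rat 1. Sec61b had the largest SD.

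Upstream sequences were read for 8 of the 10 genes from RefSeq promoter windows of 250 bases before to 50 bases after the start of the gene (build GRCr8, for the sequences only). Those of Sec61b, Rpn1, Ddost and Dad1 are shown because these genes all had their highest signal in rat 3. Capitals mark, on either strand, the CCAAT box, the CCACG end of the stress element and the ACGTG core, letters from which binding sites of the unfolded protein response are built.
Sec61b, GRCr8 chr5:66568934-66569233, plus strand: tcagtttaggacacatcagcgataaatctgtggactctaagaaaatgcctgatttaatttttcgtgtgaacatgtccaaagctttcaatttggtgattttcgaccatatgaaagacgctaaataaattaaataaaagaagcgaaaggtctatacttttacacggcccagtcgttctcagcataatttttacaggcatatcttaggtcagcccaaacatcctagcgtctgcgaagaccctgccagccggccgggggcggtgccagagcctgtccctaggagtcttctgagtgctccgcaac
Rpn1, GRCr8 chr4:122100726-122101025, plus strand: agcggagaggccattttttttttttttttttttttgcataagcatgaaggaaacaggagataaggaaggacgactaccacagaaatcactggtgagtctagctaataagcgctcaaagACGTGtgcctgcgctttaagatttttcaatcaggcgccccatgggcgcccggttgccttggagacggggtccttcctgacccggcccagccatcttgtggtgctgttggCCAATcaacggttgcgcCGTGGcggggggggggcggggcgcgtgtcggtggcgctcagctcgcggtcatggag
Ddost, GRCr8 chr5:155805362-155805661, plus strand: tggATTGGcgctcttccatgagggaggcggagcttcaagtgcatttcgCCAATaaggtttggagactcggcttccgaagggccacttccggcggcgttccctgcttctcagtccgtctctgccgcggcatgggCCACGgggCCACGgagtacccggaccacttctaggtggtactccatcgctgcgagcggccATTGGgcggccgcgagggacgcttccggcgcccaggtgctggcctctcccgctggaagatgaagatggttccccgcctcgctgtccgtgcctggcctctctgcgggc
Dad1, GRCr8 chr15:31667110-31667409, minus strand: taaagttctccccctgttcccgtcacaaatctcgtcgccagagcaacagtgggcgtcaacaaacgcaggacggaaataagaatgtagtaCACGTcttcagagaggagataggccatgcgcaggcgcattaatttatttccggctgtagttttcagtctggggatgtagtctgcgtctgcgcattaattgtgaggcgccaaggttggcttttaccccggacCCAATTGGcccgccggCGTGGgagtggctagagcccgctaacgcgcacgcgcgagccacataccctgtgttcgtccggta

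The Sec61b window held none of the 3 short motifs. Rpn1 and Dad1 held all 3, Ddost held all but the ACGTG core, and their matches lay at different distances from the start. In Rpn1 a CCAAT began 23 bases before the start, and in Dad1 one began 30 bases before it. In both, the CCACG end lay downstream of it on the opposite strand, beginning 6 and 14 bases before the start. In Dad1 the CCAAT overlapped another on the opposite strand. The flat gene Ssr1 held overlapping matches of the ACGTG core and of CCACG in 2 places.

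Over the 8 windows, CCACG was found in 6, against 31.6% of 33469 windows of the same length, ACGTG in 5, against 19.3%, and CCAAT in 4, against 37.5%. Of 72 genes of other translocation and glycosylation lists, CCACG was in 38, ACGTG in 29 and CCAAT in 22. Of 12 chaperones of the organelle, the counts were 12, 6 and 11. The median G and C content was 60.3% in the 8 windows and 51.7% in all, and its part in these counts was not tested. TATAAA (14.2% of all windows) and TGACGTGG (0.595%) were in none of the 8.

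The whole endoplasmic reticulum stress element, a CCAAT box followed, after 9 bases of any kind, by CCACG (either strand), was found in 22 of 33469 windows, or 0.0657%. It was in 0 of 8 windows of these genes and 0 of 72 genes of the other translocation and glycosylation lists. It was in 5 of 12 chaperones of the organelle with a window, namely Hspa5, Hsp90b1, Calr, Canx and Dnajc3, in 6 places. These are examples, with both ends of the element in capitals.
Hspa5, GRCr8 chr3:38452973-38452991, plus strand: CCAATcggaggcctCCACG
Calr, GRCr8 chr19:40213135-40213153, minus strand: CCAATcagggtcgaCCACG
Dnajc3, GRCr8 chr15:102432534-102432552, plus strand: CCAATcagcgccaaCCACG

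A match is a description of letters and does not show that a factor binds, and a missing match says only that these letters were not in this window.

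Across the 9 genes that were not flat, rat 1 was lowest for 5 (Sec61a1, Sec61b, Ssr4, Rpn2 and Dad1) and rat 3 highest for 5 (Sec61a1, Sec61b, Rpn1, Ddost and Dad1). Among 3185 genes above background and not flat, rat 1 was lowest for 30.0% and rat 3 highest for 33.7%. Rats 2 and 4 were lowest for 1 gene each and rat 3 for 2 (Tram1 and Ssr3), and rats 2 and 4 were highest for 2 each. Rat 1 was highest for 0 of 9, against 24.0% of all genes. The median deviations were -0.031, 0.001, 0.029 and 0.010 in rats 1 to 4, against -0.004, -0.005, 0.012 and -0.001 over all these genes. Rat 1 was most often lowest and rat 3 most often highest, both in these genes and over all genes.

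The spread between rats split the 9 genes. The median SD was 0.0701, against 0.0575 over all genes above background and not flat. Sec61a1, Sec61b, Rpn1, Rpn2 and Dad1 had SDs above that of the median gene, while Tram1, Ddost, Ssr3 and Ssr4 had smaller ones. Sec61b had a larger SD than 84.4% of the genes and Dad1 than 74.3%, but Ssr4 exceeded only 2.86% and Ssr3 1.85%. The Ssr3 value is that of its brightest probe set, while its dimmest exceeded 36.4% of the genes and its other was flat. Flat values also occurred at bright signals, such as C3 at 14.18. Whether the small SDs of Ssr3 and Ssr4 share the origin of flat values was not tested, so they need not describe the rats. Without rat 1 the median SD was 0.0461, against 0.0512 over all genes, and without rat 3 it was 0.0401, against 0.0521. Without rat 2 it was 0.0567, against 0.0531, and without rat 4 it was 0.0836, against 0.0575. The median of the 9 genes was thus above that of all genes without rat 2 or rat 4 and below it without rat 1 or rat 3. Of the 10 genes 1 was flat, and of 4874 genes above background 34.7% were.

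**Figure D2:**
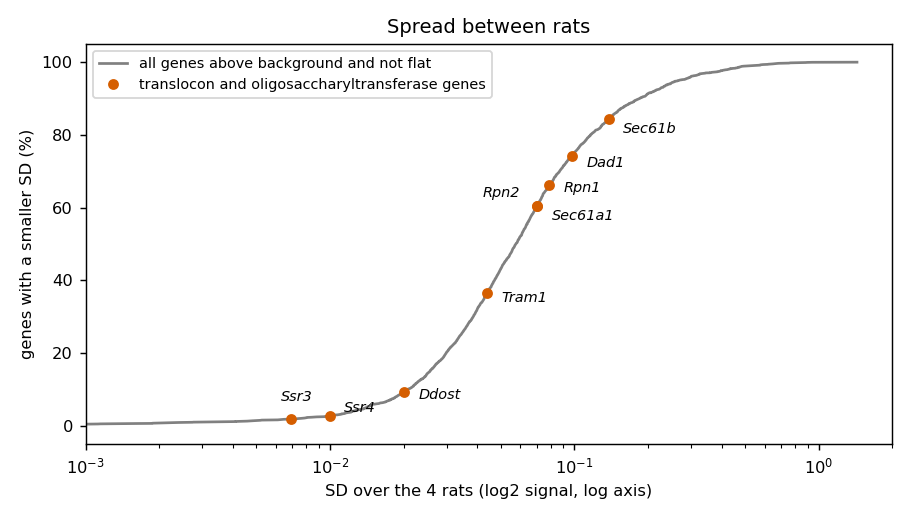
Cumulative share of 3185 genes above background and not flat (vertical axis, %) against the SD of their log2 signal over the 4 rats (log axis); points are the 9 genes of the set that were not flat. Sec61b lies above 84.4% of genes, while Ssr3, by its brightest probe set, and Ssr4 lie at the low end.

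The 5 genes with the pattern most like the median of the 9 were Stag2, Nprl2, Tmub1, Cyb5a and Stx12. Likeness was the root mean square difference of the deviations over the 4 arrays, among 2725 genes with an SD at least as large as that of the median pattern (0.0249). It ran from 0.00405 for Stag2, a cohesin subunit, to 0.00845 for Stx12, a syntaxin of endosomes. Cyb5a, the cytochrome b5 of the endoplasmic reticulum, had 12.42, 12.45, 12.47 and 12.47 and a difference of 0.00801. With 4 arrays and so small a pattern, such closeness is a description only.

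Other genes of the pathway were taken from 8 lists of 80 genes, of which 65 had a probe set. Of those, 51 lay above background, where 46.8% of all genes did. Of these 51, 16 were flat, against 34.7% of all genes above background. Among the 35 that were not, rat 1 was lowest for 18, rat 4 for 9, rat 2 for 6 and rat 3 for 2, while rat 3 was highest for 15, rat 2 for 12, rat 1 for 5 and rat 4 for 3. Of all genes above background and not flat, 30.0%, 29.2%, 18.0% and 22.8% were lowest in rats 1 to 4, and 24.0%, 21.6%, 33.7% and 20.8% were highest.

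In the other translocon genes, 4 of 5 measured lay above background and rat 3 was highest in all 4. Sec62 and Sec63, partners of the channel for chains delivered after synthesis, had 9.95 ± 0.10 and 8.95 ± 0.12. Rat 2 was lowest for Sec62 (9.80) and rat 4 for Sec63 (8.84), so neither followed the Sec61 subunits at the low end. The second alpha subunit gene, Sec61a2, had a signal of 8.21, below background.

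The signal recognition particle, which brings ribosomes to the membrane, and its receptor had 7 of 7 measured genes above background. Srp14, which helps to pause translation, gave 9.78, 9.76, 10.05 and 9.85 (SD 0.132), with rat 3 highest. Srp19 gave 8.64, 8.87, 8.77 and 8.71, and the receptor's beta subunit Srprb 10.22, 10.34, 10.33 and 10.24. Rat 1 was lowest and rat 2 highest in both. The receptor's alpha subunit Srpra gave 10.50, 10.42, 10.46 and 10.40, with rat 1 highest and rat 4 lowest. Of the 6 genes that were not flat, rat 4 was lowest for 3, rat 1 for 2 and rat 2 for 1, and Srp68 was flat.

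Signal peptidase and signal peptide peptidase (Hm13) had 6 of 6 genes above background, 3 of them flat (Spcs1, Sec11a and Sec11c). The other 3 were all lowest in rat 1. Spcs3, a subunit needed for cleavage, gave 10.62, 10.88, 10.88 and 10.73 (10.78 ± 0.13). Spcs2 gave 10.15, 10.26, 10.32 and 10.28, the same order of rats as the Sec61 subunits.

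Further oligosaccharyltransferase subunits had 5 of 6 genes above background. Ost4, a very small subunit, gave 9.45, 9.74, 9.62 and 9.69 (9.63 ± 0.13), Ostc 10.15, 10.29, 10.23 and 10.29, and Krtcap2 10.21, 10.35, 10.32 and 10.37. All 3 were lowest in rat 1, as Rpn2 and Dad1 were, but none was highest in rat 3, unlike Rpn1, Ddost and Dad1. Stt3b, a catalytic subunit, was flat at 10.05, while Stt3a, on the same list, had no probe set with its symbol alone. Magt1, an oxidoreductase subunit, was highest in rat 1, and its relative Tusc3 had a signal of 7.05, below background.

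Enzymes that build the lipid-linked glycan had 12 of 16 genes above background, 6 of them flat. Nus1, a subunit of the dolichol-making prenyltransferase, had 8.55 ± 0.10 with rat 1 lowest. Dpagt1, which starts the glycan, gave 8.89, 8.89, 9.01 and 9.01, and Dhdds, the partner of Nus1, had 8.58 ± 0.06 with rat 2 lowest.

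Glycan trimming genes had 6 of 7 above background, and their SDs included the 2 largest among the pathway genes named. Edem1, which directs misfolded glycoproteins to degradation, gave 9.22, 9.70, 9.55 and 9.65 (9.53 ± 0.22), lowest in rat 1. Man1a1, a Golgi mannosidase, gave 10.56, 10.20, 10.20 and 10.41 (10.34 ± 0.17), highest in rat 1. Mogs, the glucosidase that makes the first cut in the glycan, stayed between 9.28 and 9.38.

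Among genes of ribosome binding and sheet shape, 1 of 3 lay above background, Rrbp1 at 9.36 ± 0.05. Tail anchor and membrane insertion genes had 10 of 15, with 4 flat and a median SD of 0.0328 in the rest. Of these, Sgta gave 8.90, 9.07, 9.07 and 9.07, and its values in rats 2 to 4 lay within the 0.001 that defines flat probe sets.

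**Figure D3:**
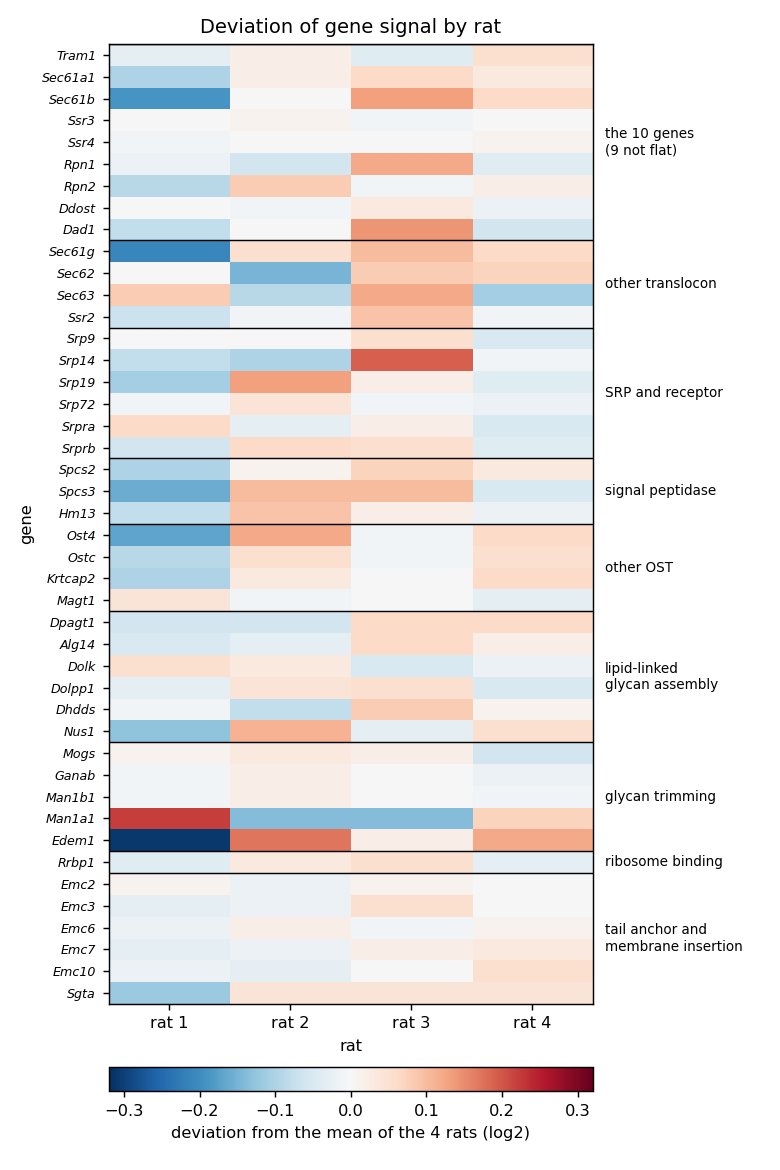
Deviation of each gene from its mean over the 4 rats in log2 units (colour), for 9 of the 10 genes and the 35 other pathway genes that were above background and not flat; columns are rats and lines part the lists. Rat 1 is lowest for 18 of the 35 other genes, and Edem1 and Man1a1 deviate in opposite directions in rat 1.

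**Figure D4:**
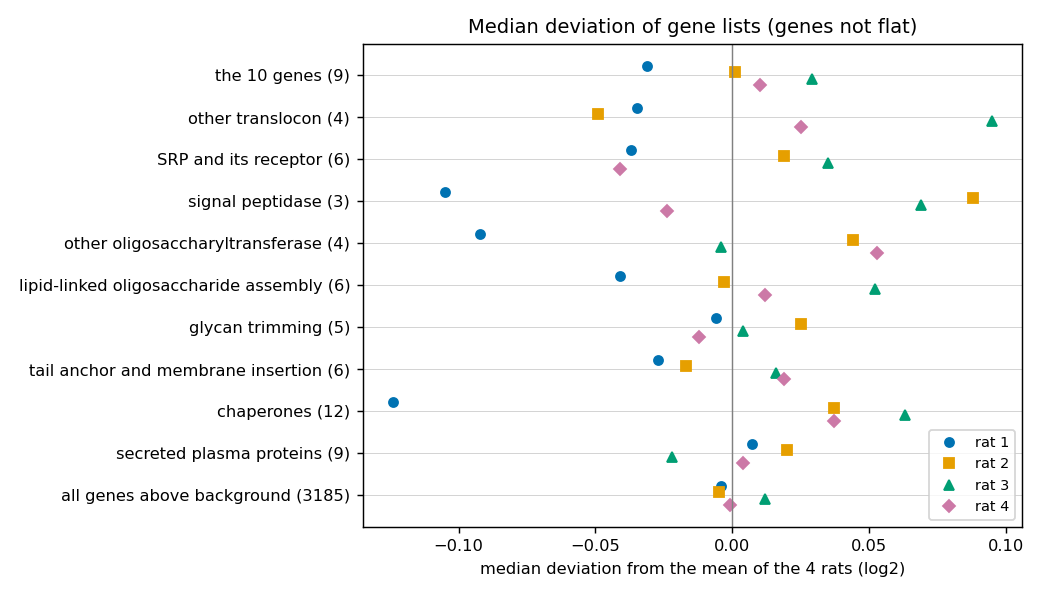
Median deviation from the mean of the 4 rats in log2 units (horizontal axis) for the genes of each list that were above background and not flat, with their number in brackets; each symbol is 1 rat. For the 10 genes the medians run from -0.031 in rat 1 to 0.029 in rat 3, and over all genes from -0.005 to 0.012.

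The arrays shared a median of 8.11 and were run on 1 fluidics station, each rat in its own module, so no batch could be fitted. The 3′ signal of beta-actin exceeded its 5′ signal by 0.85 in rat 1 and by 0.54 to 0.66 in the other rats, while for Gapdh this difference was 0.48 in rat 1 and 0.52 to 0.54 in the others. Summed over each marker list, log2 signals of hepatocyte genes ran from 16.65 in rat 1 to 16.71 in rat 3, a sum that the brightest genes dominate. Their mean log2 signal was 12.77, 12.95, 13.06 and 12.89 in rats 1 to 4, and their median deviations were -0.007, 0.016, 0.026 and 0.005. Rat 1 was lowest for 4 of the 8, against 30.0% of all genes above background and not flat. Rat 3 was highest for 3, against 33.7%. Among the 8, Tat, an amino acid catabolic enzyme, gave 9.52, 10.53, 11.10 and 10.30, lowest in rat 1 and highest in rat 3. In rat 1 Tat deviated by -0.85 and Apoa1 by -0.48, while the other hepatocyte markers lay between -0.02 and 0.09. The summed signals of Kupffer cell genes (3 of 3 above background) ran from 11.45 in rat 1 to 11.86 in rat 2, and those of stellate cell genes (3 of 6) from 11.33 in rat 3 to 11.97 in rat 4. Endothelial genes (2 of 3 above background) ran from 10.46 to 10.53, bile duct genes (0 of 3) from 9.47 to 9.55, lymphocyte and leukocyte genes from 9.38 to 9.40 and exocrine pancreas genes from 10.64 to 10.79. The part of these differences in the rat 1 and rat 3 values of the 10 genes was not tested.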

How the data were processed

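Liver RNA of 4 untreated male rats (1 group) was hybridised to 1 array each. The deposited values are log2 signals per probe set, and the arrays had a common scale. The submitters' processing notes list R 2.4.1 with affy 1.12.2, and also name GCRMA and RMA. Which of these methods made the values is not given in the sources used here. Array type is RAE230A per the file headers, while the labels name another version. Scanner settings, other per-array information deposited by the authors, served only to look for batches.

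Probe sets with 1 symbol numbered 12789, those with several 312 and those without 2822. Of the 12789, 12754 were matched by gene number to the GRCr8 gene table, as were all 10 members. Background was set at the 95th percentile of the means of 86 probe sets, which belong to 66 genes of other organs. With 1 group, no comparison was tested. The only test was Dixon's, for 1 rat far from the other 3, on 41 sets of 4 values (critical value 0.829). Python 3.11.15, numpy 2.4.6 and pandas 2.3.3 were used, and the counts and medians were tested on simulated data.

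The members and lists were chosen with earlier results of these data known. Named were all members, up to 3 genes per pathway list with the largest SD, and the 5 genes of most similar pattern. Other genes given with values, such as Ssr2, Srpra, Tat, Apoa1, Tusc3, Magt1, Stt3b and Sec61a2, were chosen after their values were seen. Protein features were not analysed here. Alternatives covered background level, probe set choice, scaling, flat tolerance, filter and leaving out each rat. The number of arrays limits the precision.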

Additional observations from a re-analysis of the deposited data

Results flagged for a closer look

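Among 41 sets of 4 values (probe sets of the 10 genes that were not flat, named pathway genes and list medians), 1 had a rat far from the other 3, relative to the range of the 4 values, where chance gives about 5%. The list medians were taken over lists that include the named genes, so the 41 sets are not independent. Sgta, a chaperone of tail-anchored proteins, had a log2 signal of 8.90 in rat 1 against 9.07 in each of the others. Those 3 values spanned 0.000303 log2 units, within the 0.001 that defines flat probe sets, so its ratio of gap to range rests on 3 values that hardly differ.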

How the results depend on the processing

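With 98th instead of 95th percentile (a level of 10.59) 7 of the 10 genes lay above background. The part of the background gene Myh1 in that level was not tested. At the 90th percentile, at the 95th without Myh1 (both 8.24), with other probe set choices and without any 1 rat, all 10 did. The median SD of 0.0701 ran from 0.0401 to 0.0836 when each rat was left out. It was 0.0571 with flat probe sets included, and the median range of the 4 values was 0.162, against 0.128 over all genes. Rat 1 was lowest and rat 3 highest for 5 members each with arrays centred on the median or 75th percentile and with a flat tolerance of 0.01; counted over all probe sets that were not flat, these were 6 and 5 probe sets. Centring each array on its 75th percentile lowered the share of all genes highest in rat 3 from 33.7% to 29.3%. Without a filter on low values, 26.8% of 6002 genes were lowest in rat 1 and 28.5% highest in rat 3. No paired analysis was possible because all 4 samples form 1 group. Flat probe sets, 3 of the 14, cannot show a difference between rats.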

Other observations

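Chaperones and folding enzymes of the endoplasmic reticulum had 15 of 15 genes above background, where 46.8% of all genes were. Of these 15, 3 were flat, against 34.7% of all genes above background. Of the other 12, rat 1 was lowest for 10, against 30.0% of all genes above background and not flat. Their median deviations were -0.124, 0.037, 0.063 and 0.037 in rats 1 to 4, against -0.004, -0.005, 0.012 and -0.001 over all these genes. Hspa5, the main Hsp70 chaperone of the organelle, gave 11.50, 11.91, 11.93 and 11.84, and Sdf2l1, a cofactor of chaperone complexes, gave 10.04, 10.60, 10.42 and 10.50. Of the genes with the whole stress element in their window, Hspa5, Hsp90b1 and Dnajc3 were lowest in rat 1 and Calr in rat 3. Hsp90b1 had 11.65, 11.82, 11.95 and 11.81, Dnajc3 10.23, 10.42, 10.35 and 10.41 and Calr 12.07, 12.11, 12.02 and 12.09. Canx was flat at 10.70 and cannot show a difference between rats. Secreted plasma proteins, the cargo of the translocon, had 13 of 13 genes above background, 4 of them flat, and medians of 0.007, 0.020, -0.022 and 0.004. Of the other 9, rat 3 was lowest for 6, against 18.0% of all genes, and rat 1 for 3. Apoa1, the main protein of high density lipoprotein and the gene of this list with the largest SD (0.321), gave 12.34, 12.98, 13.03 and 12.92, with rat 1 lowest. The difference between these lists and the 10 genes was not tested.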
